A study of Mus musculus with 6 samples.

Results

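Sciatic nerves of C57BL/6J mice were sequenced 24 h after sham surgery, and 9 genes that carry, take up or release lipoprotein lipid were followed in them: Apoe, Apod, Apoc1, Abca1, Abcg1, Lrp1, Scarb1, Lpl and Npc2. They were chosen by gene symbol, as 9 of 52999 symbols and 57 of 140789 transcripts in the annotation, and all 9 were detected in each pool. Female and male mice were 6 to 8 weeks old, and the left nerve was exposed at mid-thigh and left uncut. Each sex gave 3 pools of 2 mice, so all 6 pools share the strain, the operation and the time, and nerves of mice without any surgery were not analysed here. The RNA of whole nerve was measured, so fewer cells of a type and less RNA per cell cannot be told apart. Levels are in TPM, a transcript abundance that divides reads by transcript length and is scaled to a fixed total, and so can be set between genes. Sex comparisons were made on CPM, read counts scaled to library size and between pools by TMM factors, in which a gene's length is not removed.

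Apolipoproteins are the protein part of lipoprotein particles, which move cholesterol and other lipids between cells. Cells take the particles or their lipid up through receptors such as Lrp1 and Scarb1 and after lipolysis by Lpl. They release cholesterol through the transporters Abca1 and Abcg1, and Npc2 takes part in the export of cholesterol from the lysosome. Peripheral nerve is known for its cholesterol-rich myelin, and Apoe and Apod are known to accumulate in injured nerve.

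Library totals were 55949876 to 66285694 read pairs in female pools and 59165914 to 78473057 in male pools, and the 9 genes took 0.607% to 0.678% of them. Myelinating Schwann cell genes marked the tissue in every pool, with 34319 to 41843 TPM of 10 such markers in female pools and 39785 to 43739 TPM in male pools. Some pools stood apart. Female 2 held 3715 TPM of 12 skeletal muscle markers, against 20.9 to 232 TPM in the other pools, and female 3 held 34122 TPM of 10 erythroid and neutrophil markers, against 9465 TPM in male 3 and 14034 to 18880 TPM elsewhere. The liver markers Alb, Apoa1 and Apob stayed at or below 0.199 TPM.

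The 9 genes spanned a wide range of levels. Apod, a lipocalin that binds small lipids, was the highest at 3940 ± 251 TPM (SD, n = 6 pools), and Apoe, the main lipoprotein ligand for uptake receptors, followed at 1760 ± 359 TPM. Among the 16296 genes tested their mean levels lay at percentiles 99.9 and 99.7. Npc2 at 272 ± 40.0 TPM and Lrp1 at 231 ± 26.1 TPM came next, then Lpl at 82.4 ± 17.2 TPM and Scarb1 at 42.3 ± 3.60 TPM. The efflux transporters Abcg1 at 25.1 ± 3.02 TPM and Abca1 at 22.3 ± 1.14 TPM were near the bottom, with Apoc1, a small apolipoprotein known to inhibit lipoprotein uptake and lipases, last at 19.8 ± 6.03 TPM. With all transcripts counted, the order held in all 6 pools for each neighbouring pair from Apod down to Abcg1. With protein-coding transcripts alone Lrp1 was below Lpl in female 3, at 94.0 against 108 TPM. Abcg1 was above Abca1 in 5 of 6 pools and Abca1 above Apoc1 in 5 of 6. The place of Abcg1 above Abca1 turned on short coding transcripts of Abcg1, of 644 and 912 bases. The one of 644 bases had 14.2% to 26.99% of the Abcg1 TPM and 1.51% to 2.94% of its reads. The full-length coding transcript of Abcg1, of 5832 bases, was at 15.7 to 22.3 TPM. That of Abca1, of 10262 bases, was at 20.5 to 21.9 TPM, and was the higher one in every pool but male 3. The pool ranges of Npc2 and Lrp1, of Abcg1 and Abca1, and of Abca1 and Apoc1 overlapped.

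**Figure D1:**
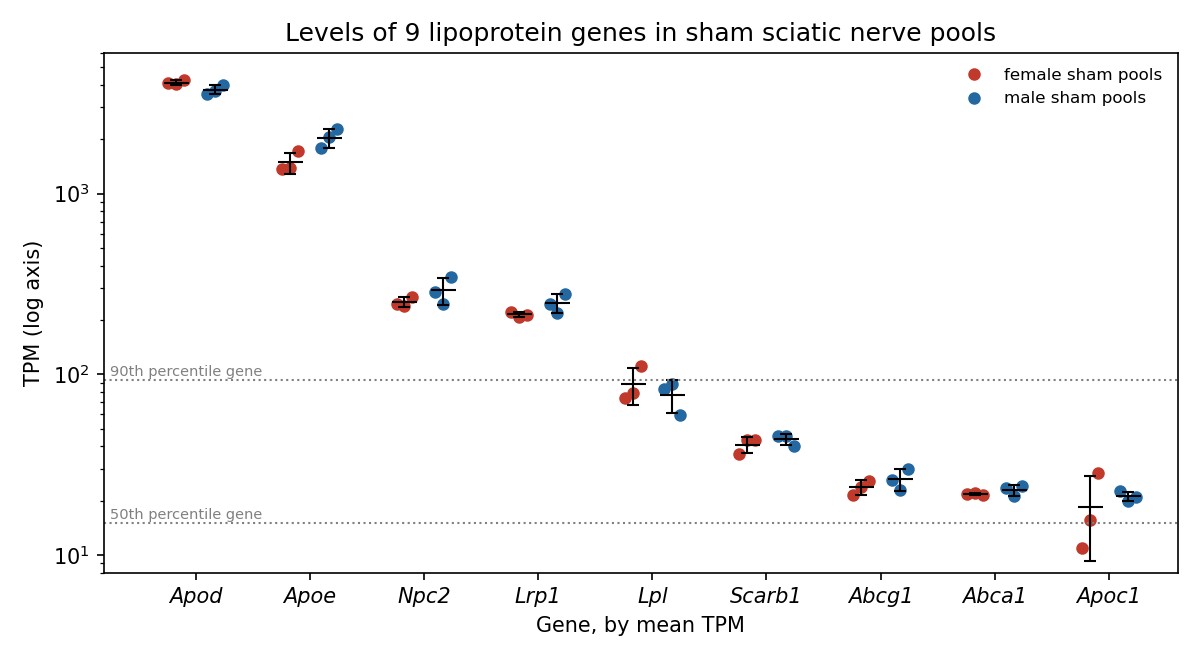
TPM of the 9 genes on a log axis, with 1 point per pool of 2 mice, female pools left of male pools, and bars for the mean ± SD of 3 pools. Dotted lines mark the 50th and 90th percentile of mean TPM among 16296 genes tested, at 15.1 and 93.2 TPM. Apod and Apoe sit far above the other 7 genes.

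Apoe, on chromosome 7 (GRCm39, 19430034 to 19434947, minus strand), was at 1368, 1380 and 1713 TPM in female pools and at 1778, 2053 and 2268 TPM in male pools. The TPM of the sexes did not overlap. On the CPM scale the values were 823, 836 and 983 CPM in female pools and 935, 1104 and 1356 CPM in male pools, and there female 3 lay above male 1. Female over male, the log2 fold change was -0.36 ± 0.14 (SE), with an unadjusted p = 0.034 and an adjusted p = 0.80 (edgeR), so the difference did not pass the threshold of 0.1. It was negative in each of 13 alternative fits, in which the adjusted p was 0.41 or more, but its size moved with single libraries, to -0.20 without male 3 and -0.48 without male 1.

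Apod, on chromosome 16 (GRCm39, 31115010 to 31135355, minus strand), went the other way in TPM. It was at 4076, 4021 and 4254 TPM in female pools and at 3576, 3707 and 4007 TPM in male pools, again without overlap. In CPM the female pools were at 3038, 3057 and 3346 and the male pools at 2701, 2809 and 3224, which overlap. The log2 fold change was 0.11 ± 0.09, adjusted p = 0.88 (edgeR). Apoe and Apod were the only 2 of the 9 genes whose TPM did not overlap between the sexes, against 11.0% of all genes tested. That is 1 lower in females, against 6.58%, and 1 higher, against 4.43%. In CPM it was 0 of 9, against 11.2% in either direction and 6.04% lower in females.

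Apoc1, on chromosome 7 (19422540 to 19427328, minus strand) beside Apoe, was at 10.9, 15.6 and 28.6 TPM in female pools and at 22.5, 19.996 and 20.8 TPM in male pools. The female pools lay on both sides of the male ones. It rested on 98 to 315 read pairs, the fewest of the 9 genes. The 98 pairs of female 1 have a 95% exact Poisson interval of 79.6 to 119, and the 315 pairs of female 3 one of 281 to 352, which cover counting error only. Its coefficient of variation of CPM over 6 pools, 31.8%, was the highest of the 9 genes, against a median of 9.03% over all genes tested.

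The uptake genes were Lrp1, a large receptor that takes in Apoe-bearing particles, Scarb1, a receptor for HDL lipid, and Lpl, the enzyme that frees fatty acids from triglyceride. Lrp1 (chromosome 10, 127374012 to 127457017) was at 222, 209 and 214 TPM in female pools and at 246, 218 and 277 TPM in male pools. In CPM it was at 1406, 1261 and 1145 in female pools and at 1466, 1196 and 1218 in male pools, so male 3 was the highest pool in TPM and stood in the middle in CPM. Scarb1 (chromosome 5, 125353547 to 125418176) was at 36.1, 43.3 and 43.1 TPM in female pools and at 45.4, 45.5 and 40.2 TPM in male pools. Its sexes overlapped.

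Lpl (chromosome 8, 69284603 to 69360100) was at 73.9, 78.8 and 111 TPM in female pools and at 82.7, 88.8 and 59.3 TPM in male pools. Female 3 was the highest pool and male 3 the lowest. A list of 12 white adipocyte markers had its extremes in the same pools, with 1205, 1575 and 2296 TPM in female pools and 1254, 1218 and 1097 TPM in male pools. Of the 12 markers 11 had a higher fitted value in females, and 0 were called. In either direction 2 of the 12 had an unadjusted p under 0.05 (edgeR), against 6.14% of all genes tested. Lpl per 100 TPM of these markers was 6.13, 5.01 and 4.84 in female pools and 6.59, 7.29 and 5.40 in male pools. The part of adipocyte RNA in the Lpl values was not tested. The log2 fold change of Lpl was 0.15 ± 0.25, adjusted p = 0.94 (edgeR), and it was -0.13 without female 3 and -7.3e-04 without male 3.

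Abca1 passes cholesterol and phospholipid to lipid-poor apolipoproteins, and Abcg1 passes cholesterol on to formed particles. Abca1 (chromosome 4, 53030787 to 53159900) was at 21.7, 21.9 and 21.5 TPM in female pools and at 23.4, 21.2 and 24.0 TPM in male pools. It was the steadiest of the 9 genes, with a coefficient of variation of CPM of 3.64%. Abcg1 (chromosome 17, 31276649 to 31336969) was at 21.5, 23.9 and 25.8 TPM in female pools and at 26.1, 22.9 and 30.1 TPM in male pools, with overlap. Npc2, the soluble lysosomal protein (chromosome 12, 84801334 to 84820617), was at 245, 240 and 269 TPM in female pools and at 287, 245 and 345 TPM in male pools. Male 3 was its highest pool, and the sexes overlapped.

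None of the 9 genes was called between the sexes (0 of 9 by edgeR, against 0.0614% of all genes tested, 0 of 9 by DESeq2, against 0.979%, and 0 of 9 by limma, against 0.0798%). At an unadjusted p under 0.05 it was 1 of 9, Apoe, against 6.14% of all genes tested. The log2 fold changes of 5 of the genes not yet given were -0.20 ± 0.33 for Apoc1, -0.04 ± 0.06 for Abca1, -0.13 ± 0.14 for Abcg1, -0.03 ± 0.11 for Lrp1 and -0.08 ± 0.07 for Scarb1. For Npc2 it was -0.23 ± 0.15, adjusted p = 0.86 (edgeR), and it was -0.04 without male 3 and -0.35 without male 2. The standard errors are as large as or larger than most of these values, so a difference of that size was not detectable with 3 pools per sex.

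**Figure D2:**
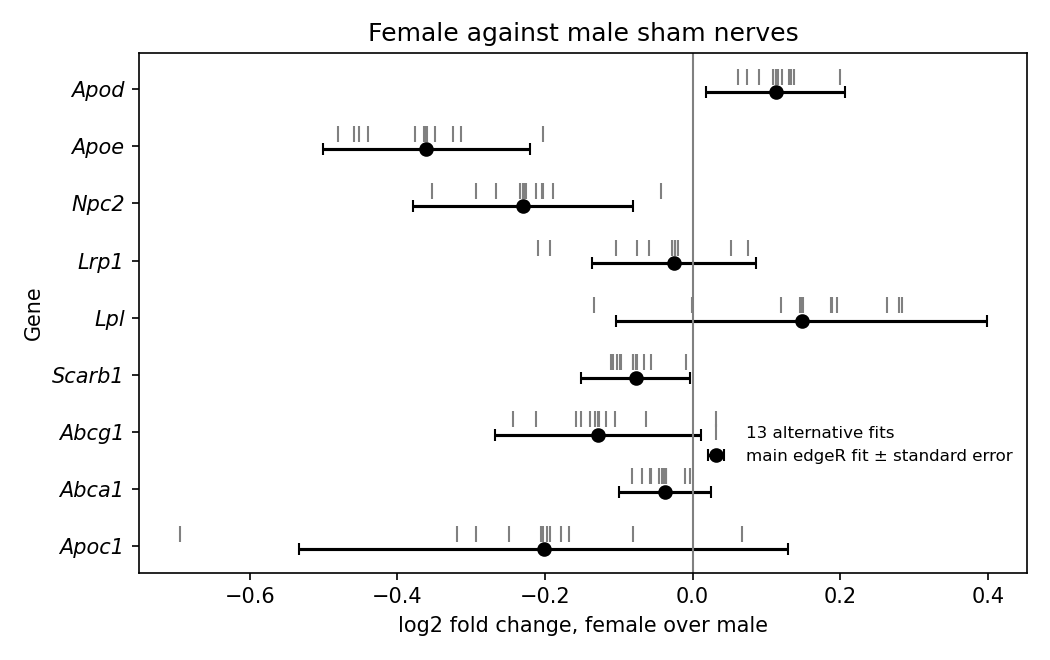
Female over male log2 fold change of each gene, with the edgeR value and its standard error as a black point and bar, and 13 alternative fits as grey ticks. Every tick of Apoe, Npc2, Scarb1 and Abca1 lies below 0 and every tick of Apod above it, while Apoc1, Abcg1, Lrp1 and Lpl have ticks on both sides.

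Uptake was set against efflux as the summed TPM of Lrp1, Scarb1 and Lpl over that of Abca1 and Abcg1. The ratio was 7.69, 7.21 and 7.78 in female pools and 7.56, 7.99 and 6.96 in male pools. Its mean was 7.56 ± 0.30 in female pools and 7.51 ± 0.52 in male pools (SD, n = 3 each), and the sexes overlapped. The uptake sum was 344 ± 21.2 TPM in female pools and 368 ± 13.7 TPM in male pools, and the efflux sum was 45.5 ± 2.09 TPM in female pools and 49.2 ± 5.04 TPM in male pools. Lrp1 made up 58.1% to 73.6% of the uptake sum. With protein-coding transcripts alone the ratio was 5.02, 4.76 and 5.14 in female pools and 5.14, 5.29 and 3.76 in male pools, so its size turned on which Lrp1 transcripts were counted.

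The transcripts behind these sums differed in kind. Of the TPM of Lrp1, 32.5% to 53.4% lay on Lrp1-208, a retained-intron transcript of 763 bases, which had 2.05% to 4.99% of the reads. The full-length coding transcript Lrp1-201, of 14888 bases, had 94.0% to 96.9% of the reads and 35.1% to 51.4% of the TPM. In GENCODE M39 Lrp1-208 has 0 exon bases and 0 splice junctions that no other listed Lrp1 transcript has, so its reads were placed by the authors' estimation. It was at 76.8, 73.0 and 87.2 TPM in female pools and at 79.9, 77.3 and 148 TPM in male pools. Male 3 thus held the high Lrp1 TPM in this short transcript. Coding Lrp1 was at 115, 105 and 94.0 TPM in female pools and at 128, 104 and 97.8 TPM in male pools, and male 3 was then below female 1 and female 2.

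Genes over 5000 bases as a whole were shifted in these libraries, with a median log2 deviation of CPM from the mean of the 6 pools of -0.05 in male 3 and 0.04 in male 1, and genes under 1000 bases by 0.10 in male 3 and -0.07 in male 1. Lrp1 itself deviated by -0.07 in male 3 and 0.20 in male 1. In male 3 and male 1 Apoe deviated by 0.45 and -0.08, and Npc2 by 0.43 and 0.05. Apoc1 deviated there by 0.22 and 0.21, and Abca1 by 0.06 and 0.02. The part of this trend with length in the values of these genes was not tested.

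Apoe was split in a similar way. Apoe-202, annotated as a processed transcript of 728 bases, took 50.4% to 61.6% of the Apoe TPM and 35.99% to 45.6% of its reads. It was at 779, 760 and 1005 TPM in female pools and at 1095, 1209 and 1144 TPM in male pools, without overlap. The coding transcript Apoe-206, of 1408 bases, was at 396, 461 and 483 TPM in female pools and at 490, 523 and 569 TPM in male pools, also without overlap. Female 3 and male 1 lay close there, at 483 and 490 TPM. The share of all transcripts without overlap between the sexes was not counted. A second coding transcript, Apoe-209, was at 166, 129 and 192 TPM in female pools and at 156, 282 and 527 TPM in male pools, with male 3 the highest. Summed over coding transcripts Apoe was at 584, 615 and 703 TPM in female pools and at 677, 837 and 1118 TPM in male pools, and the sexes overlapped between female 3 and male 1. The TPM of Apod was spread over Apod-202, Apod-201 and Apod-203 in near equal parts, from 29.1% to 36.6% each. Of its reads Apod-203 had 46.3% to 49.1%, Apod-202 28.1% to 29.2% and Apod-201, a retained-intron transcript, 22.2% to 24.5%. The coding sum of Apod, 2708, 2633 and 2855 TPM in female pools, stayed above the 2398, 2448 and 2591 TPM of male pools.

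**Figure D3:**
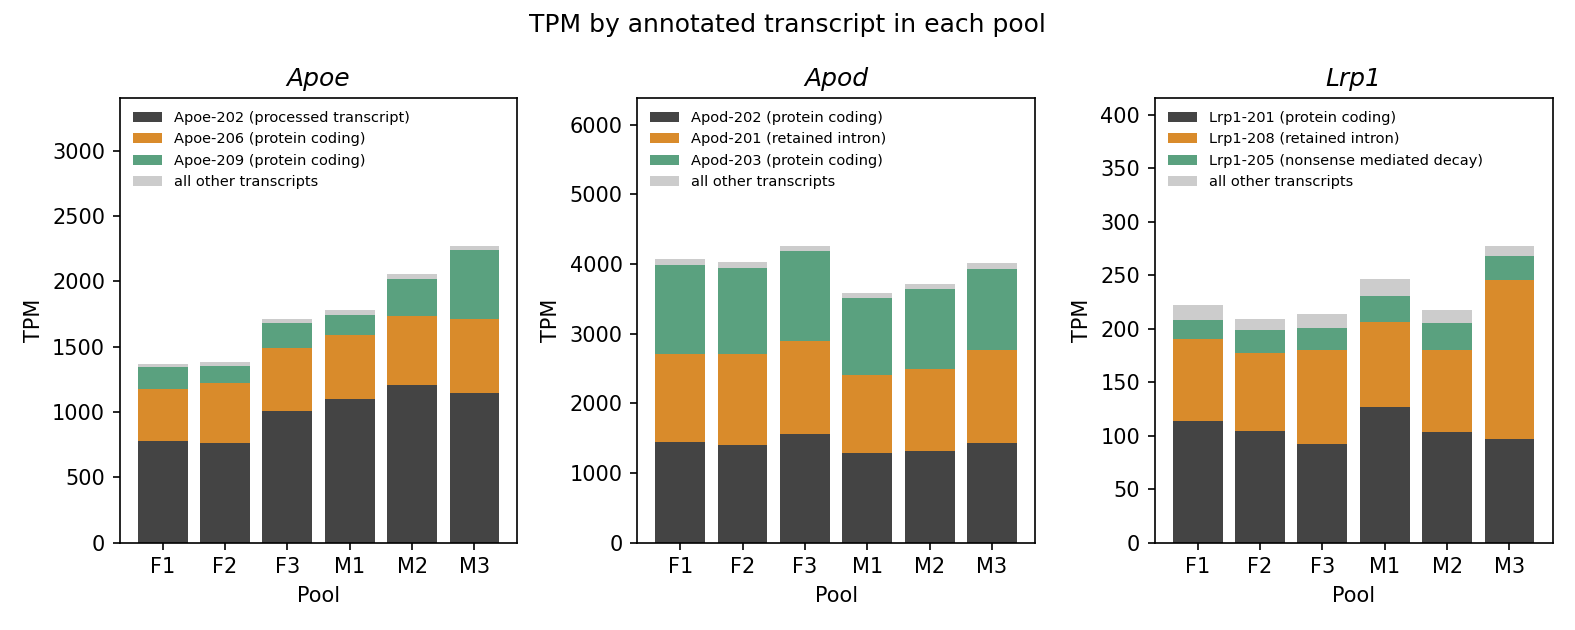
TPM of Apoe, Apod and Lrp1 by annotated transcript in each pool (F, female; M, male), stacked from 0, with the 3 transcripts of highest mean TPM in colour and the rest in light grey. Apoe-202 forms the largest block of Apoe in every pool, and Lrp1-208 is tallest in male 3 at 148 TPM.

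Apoe-202 has 0 exon bases of its own in GENCODE M39 and 1 splice junction that no other listed Apoe transcript has. That junction skips 386 bases of the last exon of Apoe-206 at chr7:19430263-19430648 (GRCm39, minus strand), of which 341 are annotated as coding and the remaining 45, the stop codon among them, follow. The upstream edge of the skipped stretch, at chr7:19430619-19430678, is shown because more Apoe TPM was assigned to this transcript than to any other. Capitals mark the 30 coding bases kept and lower case the first 30 coding bases skipped.
Apoe-202 upstream edge: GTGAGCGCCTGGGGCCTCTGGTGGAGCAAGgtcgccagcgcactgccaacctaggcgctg
The skipped stretch begins with gt and ends with ag, as introns usually do, and a run of 4 bases is repeated at both of its edges. Its length leaves a remainder of 2 after division by 3. Reads were not analysed here, so the junction itself was not counted.

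Covariation of the 9 genes was examined over the 6 pools on log2 CPM, for 36 pairs. Pearson's r was positive for 23 and negative for 13, with a median of 0.20. Abcg1 and Npc2 had the highest r, 0.96 (exact permutation p = 0.015, adjusted p = 0.55 over 36 pairs) and Spearman's rho = 0.77 (exact permutation p = 0.10, adjusted p = 0.62). Without male 2 and male 3, the pools farthest from the Abcg1 median, r was 0.88, and with each sex centred on its own mean it was 0.97. Centred in that way Apoe and Apod had a higher r of 0.98, against 0.20 without centring. Abca1 and Npc2 gave r = 0.80 (exact permutation p = 0.065, adjusted p = 0.67) and rho = 0.94 (exact permutation p = 0.017, adjusted p = 0.60), and r was 0.91 without female 2 and male 3. The 2 efflux genes gave r = 0.72 (exact permutation p = 0.096, adjusted p = 0.67) and rho = 0.83 (exact permutation p = 0.058, adjusted p = 0.62), with r = 0.94 without female 2 and male 3. Apoe and Npc2 gave r = 0.79 (exact permutation p = 0.056, adjusted p = 0.67) and rho = 0.49 (exact permutation p = 0.36, adjusted p = 0.79). Without female 1 and male 3 that r was 0.06, so it rested on those pools.

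No pair passed an adjusted p of 0.1 by either coefficient, 1 had an unadjusted p under 0.05 by Pearson's r and 1 by Spearman's rho, and the same 6 libraries stand behind every pair. On log2(TPM + 1) 22 pairs were positive, 5 had an unadjusted p under 0.05 for Pearson's r and the lowest adjusted p was 0.21, but 11 pairs changed sign between the scales. Lrp1 and Npc2 gave r = -0.17 in CPM and 0.93 in TPM, and Abca1 and Lrp1 gave -0.04 in CPM and 0.92 in TPM. Lrp1 was the gene whose TPM in male 3 lay largely on the short transcript. The TPM of Abca1 also varied with a short transcript, a processed one of 775 bases with at most 0.66% of the Abca1 reads. That transcript was at 2.33 TPM in male 3, 1.47 TPM in male 1 and 1.403 TPM in female 2, and lower in the other pools. Male 3 and male 1 were the highest Abca1 pools in TPM. The coding transcript of Abca1 stayed at 20.5 to 21.9 TPM. Within 1 sex there are 3 pools, too few for a correlation.

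**Figure D4:**
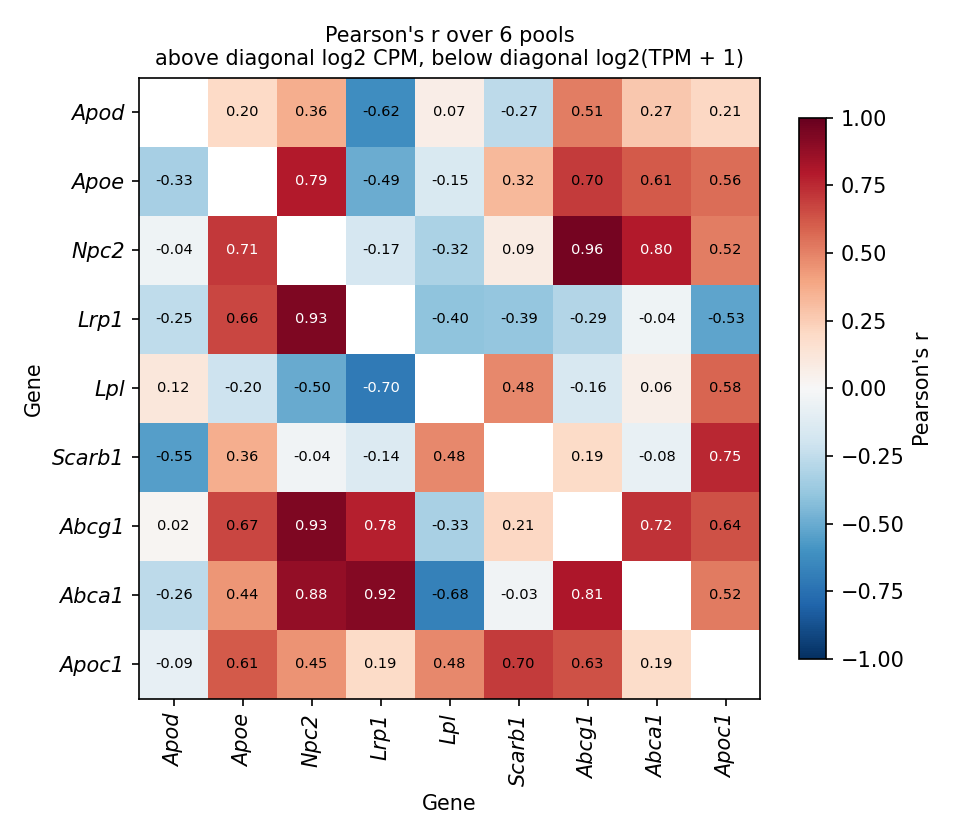
Pearson's r over 6 pools for the 36 pairs of genes, above the diagonal on log2 CPM and below it on log2(TPM + 1), with red for positive and blue for negative values. The Lrp1 row and column change colour across the diagonal for Npc2, Abca1, Abcg1, Apoe and Apoc1, while Abcg1 with Npc2 stays at 0.96 and 0.93.

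RefSeq promoter windows on GRCm38.p6 were matched by symbol for 5 of the 9 genes (Apoe, Apod, Abca1, Lrp1 and Npc2). The 250 bases before the start are shown for Abca1 and Npc2, the matched pair with the highest rank correlation, and capitals mark every match, on either strand, to the TATA box TATAAA, to the E-box CACGTG or to the GC box GGGCGG.
Abca1 (chr4:53159896-53160145, minus strand): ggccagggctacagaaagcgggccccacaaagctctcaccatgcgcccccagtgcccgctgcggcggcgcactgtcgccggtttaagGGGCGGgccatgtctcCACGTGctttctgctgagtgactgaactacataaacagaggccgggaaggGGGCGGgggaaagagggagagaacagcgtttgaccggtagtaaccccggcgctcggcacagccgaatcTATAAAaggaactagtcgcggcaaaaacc
Npc2 (chr12:84773113-84773362, minus strand): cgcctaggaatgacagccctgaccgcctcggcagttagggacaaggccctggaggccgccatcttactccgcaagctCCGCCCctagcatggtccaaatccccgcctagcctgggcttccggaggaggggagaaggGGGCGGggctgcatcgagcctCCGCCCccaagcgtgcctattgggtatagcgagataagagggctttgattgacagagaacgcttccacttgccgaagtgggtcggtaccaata
The Abca1 window holds TATAAA at -29 from the start, CACGTG at -147, and GGGCGG at -163 and -97, all on the strand shown. The Npc2 window holds GGGCGG at 3 places, of which 2 are on the opposite strand, and neither of the other motifs. These matches do not overlap each other. Of 32851 promoter windows of the same length, 12.4% hold the TATA box, 6.02% the E-box and 32.7% the GC box.

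Genes most like each of the 9 in log2 CPM over the 6 pools were searched among 9657 genes with a mean of at least 10 TPM. For Apoe they were Gm36161 and Scd2, a fatty acid desaturase, at r = 0.996 and 0.995. For Npc2 the first was B2m, the light chain of MHC class I, at 0.995. For Abcg1 they were Tiparp at 0.988 and Pttg1 at 0.987, and for Abca1 Rps4l at 0.989 and Gm42031 at 0.981. For Lrp1 they were Piezo2, a mechanically gated channel, at 0.989 and Zfp687 at 0.988, and for Apod Surf1 at 0.996 and Slc31a2 at 0.992. For Scarb1 they were Vangl1 at 0.971 and Rfc1 at 0.964, for Lpl Aff3 at 0.988 and Anapc4 at 0.986, and for Apoc1 Plekha5 at 0.988 and Olfml1 at 0.985. With 6 pools such values are the top of a long search and are given as a description: from 4 genes for Abca1 to 58 for Apoe passed 0.95.

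The wider pathway was read in 8 lists that together hold 81 other genes, of which 65 were tested. By edgeR 0 of 65 were called, against 0.0614% of all genes tested, and 9 had an unadjusted p under 0.05, against 6.14%. By DESeq2 it was 1 of 65, Apoc2, against 0.979%. Apoc2, the cofactor that Lpl needs, was at 39.5, 42.9 and 42.4 TPM in female pools and at 64.1, 62.3 and 111 TPM in male pools. Male 3 was the highest, and the sexes did not overlap. Among all genes tested 11.0% did not overlap in TPM in either direction, and 6.58% did so lower in females. Its log2 fold change was -0.91 ± 0.27, with an adjusted p of 0.65 by edgeR and 0.017 by DESeq2. Apoc2 (chromosome 7, 19405504 to 19411877) overlaps a read-through gene, Gm44805 in the files, which was at 0.81 to 2.93 TPM, so reads shared by both could be split between them.

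Genes of cholesterol synthesis and its regulator, the SREBP2 targets, had a negative fitted value in 16 of 16, with a median log2 fold change of -0.13 against 0.00 over all genes tested. Over all genes tested 8058 of 16296 were negative, which is also the background for the counts of the lists that follow. Genes of a list share the same 6 libraries, so their signs are not independent of each other. Of these 0 were called and 4 had an unadjusted p under 0.05 (edgeR), against 3.64% of all genes tested that were so and lower in females. Among them Hmgcs1, which opens the pathway, was at 431 ± 38.4 TPM in female pools and 493 ± 36.2 TPM in male pools (SD, n = 3 each), and Fdps at 186 ± 14.2 TPM in female pools and 200 ± 11.4 TPM in male pools. Idi1 had a log2 fold change of -0.27 ± 0.10 and Insig1, which holds SREBP in the ER, one of -0.18 ± 0.07, with adjusted p of 0.79 and 0.80 (edgeR). None of these passed the test.

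Efflux and lipidation genes, Abca1 and Abcg1 among them, were negative in 6 of 6, with a median of -0.05. Pltp, which transfers phospholipid between particles, was at 85.9 ± 14.5 TPM in female pools and 111 ± 16.99 TPM in male pools, and Abca7 at 11.8 ± 0.88 TPM in female pools and 12.9 ± 0.92 TPM in male pools. LXR receptors and targets, 5 of them among the 9 genes and Pltp again among the rest, were split, 7 positive and 6 negative, with a median of 0.01. The receptor Nr1h2 was at 69.9 ± 3.75 TPM in female pools and 71.3 ± 1.40 TPM in male pools, and Srebf1, the LXR target that drives fatty acid synthesis, had a log2 fold change of 0.13 ± 0.07. Of these 2 lists 0 genes were called.

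The LDL receptor family, with Lrp1, gave 5 positive and 9 negative of 14, with a median of -0.02. The chaperone Lrpap1 was at 59.8 ± 0.68 TPM in female pools and 61.7 ± 2.16 TPM in male pools. Lrp3 and Lrp4 had log2 fold changes of 0.18 ± 0.09 and 0.13 ± 0.08. Scavenger receptors, with Scarb1, gave 3 positive and 5 negative of 8, led in level by Cd68 at 311 ± 6.03 TPM in female pools and 412 ± 76.5 TPM in male pools and by Cd36 at 167 ± 13.9 TPM in female pools and 146 ± 16.3 TPM in male pools. Cxcl16 had a log2 fold change of -0.62 ± 0.31. Of these 2 lists 0 genes were called.

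Lpl and its partners, Lpl itself counted, gave 5 positive and 2 negative of 7, with a median of 0.07. Angptl4, which inhibits Lpl, was at 135 ± 40.2 TPM in female pools and 109 ± 10.8 TPM in male pools, above Lpl in mean level. Sel1l, which with Lmf1 is known to help Lpl fold, was at 59.96 ± 3.15 TPM in female pools and 57.5 ± 2.58 TPM in male pools, and Lmf2 had a log2 fold change of -0.04 ± 0.05. Lysosomal cholesterol genes, with Npc2, were negative in 6 of 7, with a median of -0.12. Lipa, the lysosomal acid lipase, had the smallest p of that list, with a log2 fold change of -0.26 ± 0.07 and an adjusted p = 0.56 (edgeR), at 90.3 ± 3.64 TPM in female pools and 106 ± 2.43 TPM in male pools. The membrane proteins Lamp1 and Laptm4a were at 677 ± 30.7 and 548 ± 39.8 TPM in female pools, and at 731 ± 11.7 and 543 ± 24.7 TPM in male pools. Of the other apolipoproteins 7 of 16 were tested, 4 positive and 3 negative. Clu was at 46.8 ± 4.08 TPM in female pools and 44.8 ± 5.07 TPM in male pools, and Apoh had a log2 fold change of 0.45 ± 0.17 at 2.53 TPM.

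The summed macrophage markers, like Apoe and Apoc2, had lower TPM in all female pools than in any male pool. The sum of 12 such markers was 1880, 1752 and 2005 TPM in female pools and 2076, 2267 and 2288 TPM in male pools. Of the 12 markers 9 had a lower fitted value in females, and 0 were called. In either direction 6 of the 12 had an unadjusted p under 0.05 (edgeR), against 6.14% of all genes tested. Adgre1 was at 91.1 TPM or more in every pool. Apoe per 100 TPM of these markers was 72.8, 78.7 and 85.5 in female pools and 85.7, 90.6 and 99.1 in male pools. Apoc2 per 100 TPM of them was 2.10, 2.45 and 2.11 in female pools and 3.09, 2.75 and 4.87 in male pools. Apoe per 100 TPM of 10 myelinating Schwann cell markers was 3.99, 3.38 and 4.09 in female pools and 4.47, 4.88 and 5.19 in male pools. Cd68 is in the macrophage list as well as among the scavenger receptors. The part of macrophage RNA in the Apoe and Apoc2 values was not tested.

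**Figure D5:**
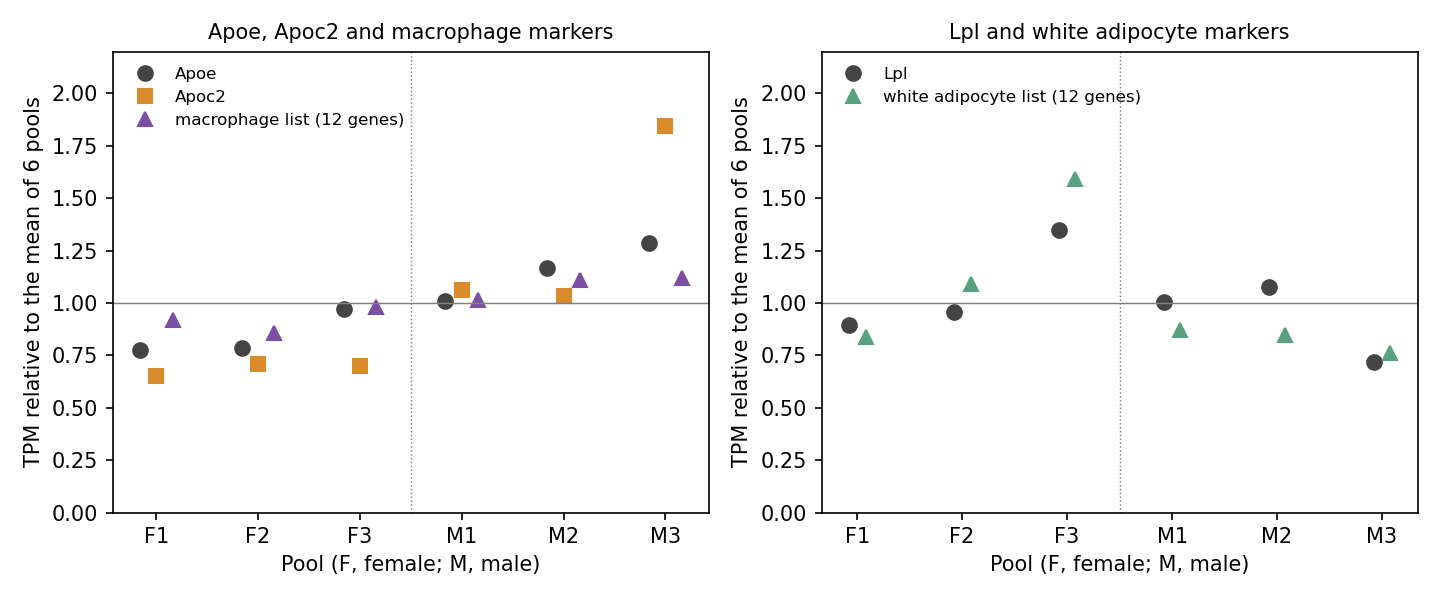
TPM relative to the mean of the 6 pools, for Apoe, Apoc2 and the summed macrophage markers (left) and for Lpl and the summed white adipocyte markers (right), 1 point per pool. All 3 female pools lie below all 3 male pools in each series on the left, and female 3 is highest and male 3 lowest in both series on the right.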

How the data were processed

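Left sciatic nerves of 3 female and 3 male pools of 2 mice (RNA integrity number of at least 7.0) were sequenced as stranded poly-A libraries. The authors trimmed reads with Trimmomatic 0.39 and quantified GENCODE transcripts with Salmon (1.5.2 in the submitters' processing notes; the paper's text and the files name different releases of Salmon or GENCODE). The deposited estimated counts are unnormalized read pairs per transcript, and the TPM deposited by the authors are scaled within each sample. Both were summed here per gene symbol, and estimated counts were rounded. The 16296 genes that reached 0.5 CPM in 3 or more samples were tested with edgeR 4.0.16 (TMM, robust quasi-likelihood, no covariate, Benjamini-Hochberg over all genes, threshold 0.1). Alternatives were DESeq2 1.42.0, limma 3.58.1 on log2(TPM + 1), RLE factors, length offsets, other filters, a replicate block, an adjusted p of 0.05, rescaled TPM, coding transcripts only, and each replicate left out. R 4.3.3, Python 3.11.15, pandas 2.3.3, NumPy 2.4.6 and SciPy 1.17.1 were used, and the tests were tested on simulated data. No pool repeated another.

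The genes and lists were chosen with earlier results of these data known. The text names the 9 genes, of each list the 2 genes of highest mean TPM and up to 2 of smallest p, and for each of the 9 genes the 2 genes of highest r; cell type markers and Gm44805 are named in addition. A few genes picked by this rule are left out of the text. Gene coordinates are from GENCODE M39 on GRCm39, whose transcript lengths can differ from the deposited ones. Promoters are from RefSeq on GRCm38.p6. How reads shared between transcripts were divided was not tested.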

Additional observations from a re-analysis of the deposited data

How the results depend on the processing

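All 9 genes and, except under DESeq2 (1, Apoc2), all 65 pathway genes stayed uncalled under every alternative. Over all genes, edgeR called 10, DESeq2 159, edgeR without a filter 43, with a CPM of at least 1 in all 6 samples 4, and with the replicate block 4; with each replicate left out in turn it called 3 to 8. Pools of the same number did not deviate together (r of -0.18 to -0.15), while other matches gave r of -0.11 to 0.31. With 3 pools per sex this cannot exclude a pairing. With the block 0 of 9 genes and 0 pathway genes were called, and the Apoe log2 fold change was -0.35 ± 0.09, adjusted p = 0.73 (edgeR). The fold change of a gene changed sign in 6 of 117 gene and setting combinations: Apoc1 without female 1 (0.068; range over replicates left out -0.70 to 0.068), Lrp1 without female 3 (0.052) and without male 1 (0.075; range -0.10 to 0.075), Lpl without female 3 (-0.13) and without male 3 (-7.3e-04; range -0.13 to 0.28), and Abcg1 without male 3 (0.032; range -0.24 to 0.032). With replicates left out the others kept their sign, at -0.48 to -0.20 for Apoe, 0.06 to 0.20 for Apod, -0.06 to -0.0033 for Abca1, -0.11 to -0.0085 for Scarb1 and -0.35 to -0.04 for Npc2. The uptake over efflux ratio with coding transcripts only was 4.97 in female and 4.73 in male pools, from its fewer transcripts, chiefly of Lrp1. Of 108 checks of mean TPM, 9 moved by more than the SD between pools, 8 of them with coding transcripts only. Of the 9 genes Apoc1 had the fewest reads, 98 to 315 pairs.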

Other observations

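Apoe set against Apod, a ratio chosen after the values were seen, was 33.6, 34.3 and 40.3 TPM of Apoe per 100 TPM of Apod in female pools, and 49.7, 55.4 and 56.6 in male pools. In CPM it was 27.1, 27.4 and 29.4 in female pools and 34.6, 39.3 and 42.1 in male pools, and with coding transcripts alone 21.5, 23.4 and 24.6 in female pools and 28.2, 34.2 and 43.1 in male pools. The pair was picked because its TPM differed in opposite directions, so the TPM ratio had to separate the sexes, and no test was made of it. The CPM and coding ratios use the same genes, pools and reads, so they are not independent of that choice.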
